A study of Mus musculus with 36 samples.

Results

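The question here is whether pressure overload changed gene expression in the hearts of cSirt4-Tg mice by another amount than in control hearts. It was addressed in the 24 libraries, of 36 in all, whose labels give vehicle as the treatment, 6 from each of 4 groups. These are Tg-TAC (cSirt4-Tg mice after transverse aortic constriction, TAC), Tg-Sham (cSirt4-Tg mice after sham surgery), Con-TAC (control mice after TAC) and Con-Sham (control mice after sham surgery), and all 4 groups received vehicle. The other 12 libraries come from MitoQ-treated TAC hearts of both genotypes and entered the model without weight in the comparison. They did share the estimate of the spread between libraries, on which every limma p and interval rests. The labels call the tissue whole heart. The sources used here do not give the strain, sex or age of the mice, the time after surgery, the MitoQ dose, or the promoter and number of lines of the transgene. The interaction is the TAC difference in Tg hearts (Tg-TAC minus Tg-Sham) minus the TAC difference in control hearts (Con-TAC minus Con-Sham), on the log2 scale. A positive interaction means a higher, or less negative, TAC difference in Tg hearts.

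TAC narrows the aorta, so that the left ventricle pumps against a raised pressure. The overloaded heart is known to re-express fetal sarcomere and stress genes, to lay down extracellular matrix and to lower genes of fatty acid oxidation and mitochondrial respiration. Sirt4 encodes a sirtuin of the mitochondrial matrix that acts on fuel metabolism. An interaction separates a genotype difference that is the same with and without overload from one that depends on overload.

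The libraries held 14834719 to 60010648 assigned reads. Genes of the mitochondrial genome took 13.12% to 19.62% of the reads in Tg-TAC, 17.66% to 27.92% in Tg-Sham, 17.35% to 24.87% in Con-TAC hearts and 17.69% to 25.48% in Con-Sham. The libraries Tg-TAC 4, Tg-TAC 6, Con-TAC 6 and Con-Sham 2 correlated least with the other libraries of their group, with median r across genes of 0.9193, 0.9264, 0.9323 and 0.9517. Tg-TAC 6 had the lowest summed normalized counts of its group for collagens (57851, median 168318) and the highest for cardiomyocyte markers (2980655, median 1946153). Con-TAC 6 had the highest of its group for collagens (120128, median 75360). Tg-TAC 4 had 23282 of the adipocyte marker Car3 (232.6 or less in the other vehicle libraries). It also had 2934 of lymphocyte, mast cell and neutrophil markers (group median 362). The causes were not tested. Defining cardiomyocyte markers such as Myh6 and Tnnt2 were high in all 24, as the whole-heart label has it. Library descriptions end in a number of unstated meaning, which was S1 to S5 in Tg-TAC, apart from S12 in Tg-TAC 2. In the other vehicle groups it was S6 to S13. It thus nearly follows the Tg-TAC group, and its part was not tested. Library names carry another number of unstated meaning, which is 7 to 14 (below, names 7 to 14) in 5 Tg-TAC, 3 Tg-Sham, 5 Con-TAC and 3 Con-Sham libraries. For the interaction of each gene and the median of each list described, the value within these 16 libraries and the value without the 4 least similar ones are given where they differ by over 1.5 times from that in all. Sirt4, which the genotype label names, had 313, 343 and 473 normalized counts in Tg-TAC, 314, 386 and 444 in Tg-Sham, 253, 358 and 385 in Con-TAC and 349, 375 and 606 in Con-Sham hearts, where the 3 values are the lowest, the median and the highest of 6 libraries. The groups overlapped throughout. Sirt4 differed between Tg and control by log2 0.086 after TAC (p = 0.528 by a two-sided exact permutation test, 0.539 after adjustment over 2 tests) and by log2 -0.11 in sham hearts (exact p = 0.539 before and after adjustment), where 0.00216 is the smallest p that 6 against 6 libraries allow. Its interaction was log2 0.19 (95% interval -0.14 to 0.52, limma adjusted p = 0.897). For Sirt4 the interaction was -0.056 without the 4 libraries and 0.31 among names 7 to 14. A higher Sirt4 transcript level in the libraries labelled cSirt4-Tg was thus not detectable, and the genotypes are those of the labels. The labels state neither the species nor the construct of the transgene. Its transcript may therefore not be counted under Sirt4, and these values would then not measure it.

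No single gene had an interaction that passed the test. Of 16275 genes tested with limma, 0 were called at an adjusted p under 0.05 (0.0%), with a smallest adjusted p of 0.178. At an unadjusted p under 0.05 there were 949 genes (5.83%), of which 413 had a higher (2.54%) and 536 a lower TAC difference in Tg (3.29%). When libraries were instead scaled to equal totals of the genes outside the mitochondrial genome, 207 were higher and 933 lower. The share of 5.83% is close to the 5% that the threshold alone gives. On the recovered reads edgeR called 0 genes, with 941 at an unadjusted p under 0.05, and DESeq2 called 2, while limma with array weights called 3. The 949 became 1725 without Tg-TAC 6, 1586 without Con-TAC 6, 2246 without the 4 least similar libraries, which left 0 called, and 1770 among names 7 to 14. They fell to 763 when the 24 vehicle libraries were fitted alone and to 818 without Tg-TAC 4. The median SE was 0.23 and the median 95% interval reached 0.47 to either side on the log2 scale. For 10701 genes (65.8%) the whole interval lay between -1 and 1.

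In both genotypes TAC moved many genes, and mostly the same way. It changed 2716 genes in Tg hearts (16.7%, 1288 higher, or 7.91%, and 1428 lower, or 8.77%) and 863 in control hearts (5.3%, 431 higher and 432 lower, each 2.65%). Called in both were 500 genes, 237 higher and 263 lower, and 0 were called in opposite directions. These 500 are 18.4% of the Tg calls and 57.9% of the control calls. Among them the TAC difference was the larger one in Tg hearts for 243, with a median size of log2 0.61 in Tg and 0.59 in control hearts. A count of calls is not a test of a difference between genotypes: of the 2216 genes called in Tg alone, 93.2% had the same sign in control hearts (72.5% of all genes), and 382 had an unadjusted interaction p under 0.05 (5.83% of all genes). Of the 363 called in control hearts alone, 94.5% had the same sign in Tg hearts, and 69 had such a p. Both sets were chosen on a TAC difference that enters the interaction, so a raised share is partly built in. Across all genes the 2 TAC differences correlated with r = 0.57 (Spearman's rho 0.56), where genes are not independent replicates. With equal totals outside the mitochondrial genome, 930 genes were higher and 183 lower in control hearts, where the median over all genes moved to 0.11 on the log2 scale, and edgeR gave 553 higher and 366 lower. The counts of calls moved with single libraries. The Tg count was 1693, 1718 and 4606 without Tg-TAC 4, 5 and 6, and 4349 without the 4 least similar libraries. The control count was 574, 420, 370, 404 and 387 without Con-Sham 1, 3, 4, 5 and 6, 1543, 449 and 134 without Con-TAC 1, 3 and 4, 1443 without Tg-TAC 6, and 1909 without the 4. It was also 302 when the 24 vehicle libraries were fitted alone, 166 with the name number as a covariate and 24 among names 7 to 14, so how far the control count lies below the Tg count depends on these choices.

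**Figure D1:**
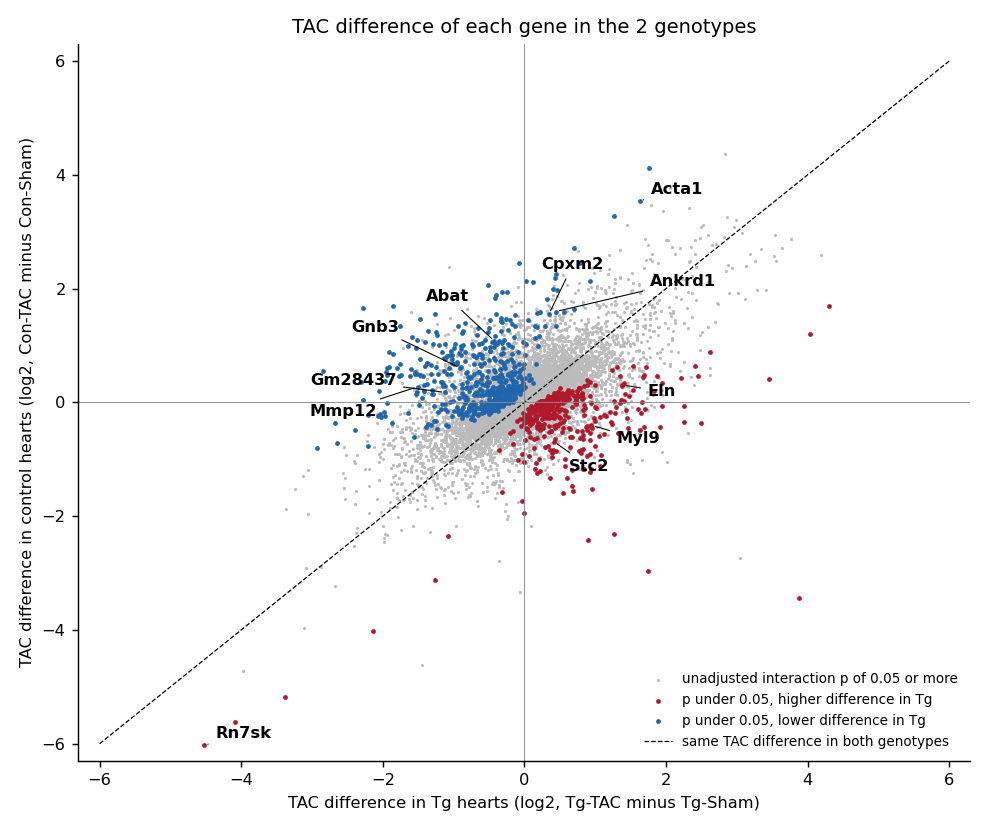
TAC difference of each of the 16275 genes in Tg hearts (x axis, log2) and in control hearts (y axis, log2), 6 libraries in each group. The cloud follows the dashed line of equal differences, red and blue points are the 413 and 536 genes at an unadjusted interaction p under 0.05 with higher and lower differences in Tg, and Rn7sk lies far to the lower left, with differences of -4.52 in Tg and -6.03 in control hearts.

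The 949 genes were described by the shape of their 4 group means, as a description, since the same libraries give the interaction and its parts. Opposite signs of the TAC difference in the genotypes were found in 656 of them (69.1%), where 72.5% of all genes had the same sign: 274 were positive in Tg and negative in control hearts, and 382 the reverse. Another 116 were positive in both and higher in Tg, and 118 were negative in both and lower in Tg. In 690 the Tg minus control difference was larger after TAC, and in 259 (27.3%, against 39.2% of all genes) it was larger in sham hearts. The genes named below illustrate both shapes. For the gene lists, 47.1% of all genes with a positive interaction is the background of each count of signs. The background of each count at an unadjusted p under 0.05 is 2.54% higher and 3.29% lower. The 6 libraries of 1 group lay wholly above or below the 6 of the other for 2.21% of all genes between Tg-TAC and Tg-Sham, 3.66% between Con-TAC and Con-Sham, 0.971% between Tg-TAC and Con-TAC and 3.89% between Tg-Sham and Con-Sham, which is the background of each statement on overlap.

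**Figure D2:**
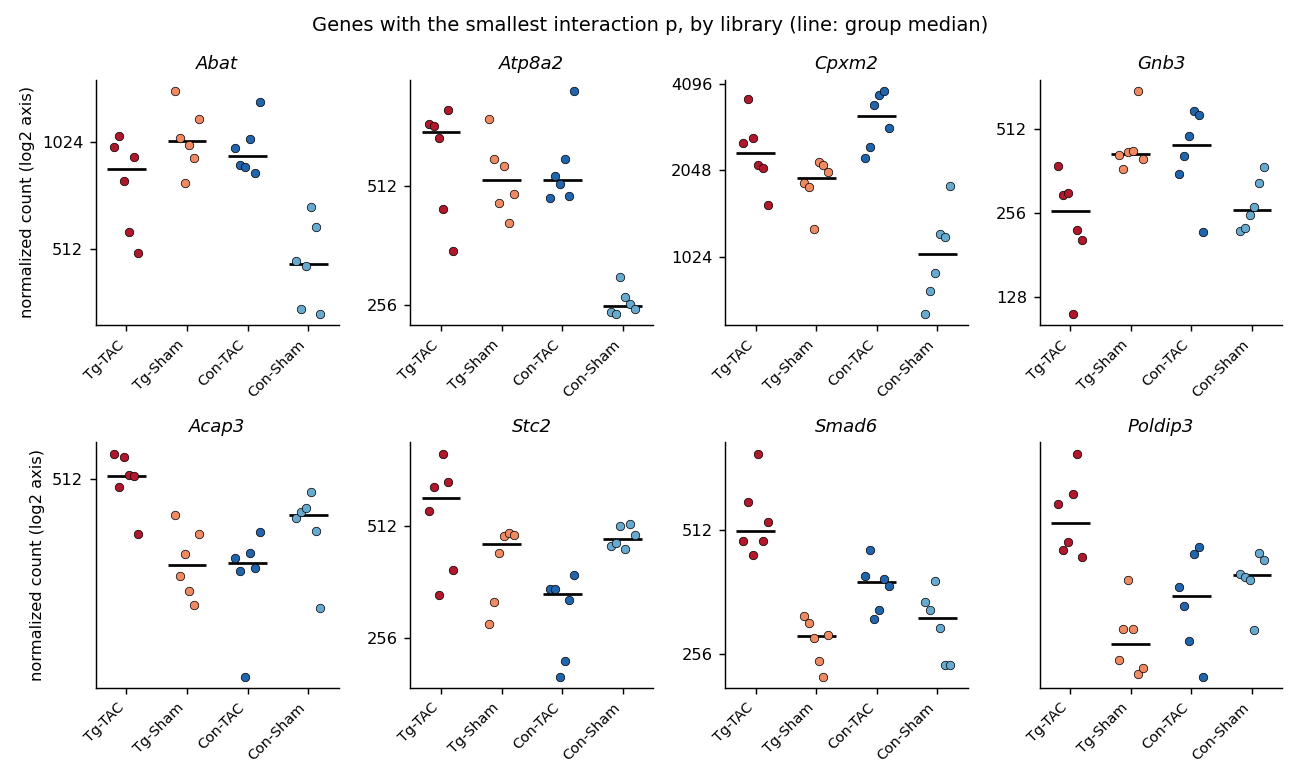
Normalized counts (log2 axis) of 8 of the 16 genes with the smallest interaction p, 1 point per library and a line at the median of 6. In the upper row the Tg-Sham median lies above the Con-Sham median, while the libraries of these 2 groups overlap for Cpxm2 and Gnb3. For Abat the medians are 862 in Tg-TAC, 1031 in Tg-Sham, 935 in Con-TAC and 465 in Con-Sham. In the lower row Tg-TAC hearts have the highest medians.

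Abat (ENSMUSG00000057880, mm39 chromosome 16, 8331293 to 8439432) had the smallest interaction p of all genes. It encodes the mitochondrial transaminase that breaks down GABA. Abat had 498, 862 and 1066 normalized counts in Tg-TAC, 788, 1031 and 1432 in Tg-Sham, 842, 935 and 1329 in Con-TAC and 335, 465 and 671 in Con-Sham hearts. The Con-Sham median was the lowest of the 4, and the lowest Tg-Sham library lay above the highest Con-Sham library. In control hearts TAC raised Abat (log2 1.08 with SE 0.21, limma adjusted p = 0.00386, 6 of 6), and in sham hearts it was higher in Tg (log2 1.18 with SE 0.21, limma adjusted p = 0.00361, 6 of 6). In Tg hearts the TAC difference was -0.43 and did not pass the test (adjusted p = 0.151). The interaction was log2 -1.51 (95% interval -2.10 to -0.91, adjusted p = 0.178), and all 6 Tg-TAC libraries lay below the place that the control TAC difference would give them. DESeq2 gave log2 -1.45 with an adjusted p of 0.00978. Leaving out 1 library gave -1.61 to -1.38. The 2 lowest Tg-TAC values, 498 and 573, are those of Tg-TAC 6 and 4, and the interaction without the 4 least similar libraries was -1.06.

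Atp8a2, Cpxm2 and Gnb3 are also among the 16 genes with the smallest interaction p. Atp8a2, a phospholipid flippase, had 352, 701 and 798 in Tg-TAC, 413, 531 and 757 in Tg-Sham, 477, 530.4 and 890.3 in Con-TAC and 243, 254 and 301 in Con-Sham hearts. Its Con-Sham values lay below those of all other groups without overlap. TAC raised it in control hearts (log2 1.13 with SE 0.16, limma adjusted p = 0.000101, 6 of 6), and the Tg-Sham level was higher than the Con-Sham level (log2 1.04 with SE 0.16, limma adjusted p = 0.000483, 6 of 6). The interaction was -0.98 (SE 0.23, limma adjusted p = 0.592) and -0.54 without the 4 libraries. Cpxm2, a secreted protein of the carboxypeptidase family, had 1552, 2346 and 3607 in Tg-TAC, 1287, 1934 and 2184 in Tg-Sham, 2259, 3156 and 3862 in Con-TAC and 652, 1053 and 1808 in Con-Sham hearts. TAC raised it in control hearts, where the groups did not overlap (log2 1.55 with SE 0.22, limma adjusted p = 9.11e-05, 6 of 6), and the difference in Tg hearts was 0.35 (adjusted p = 0.278). Its interaction was log2 -1.21, SE 0.31, limma adjusted p = 0.616, 6 of 6, where the last count is the number of Tg-TAC libraries on that side of the control TAC difference. Gnb3, a beta subunit of heterotrimeric G proteins, had 111, 261 and 379 in Tg-TAC, 371, 419 and 704 in Tg-Sham, 219.8, 449 and 597 in Con-TAC and 220.4, 262 and 376 in Con-Sham hearts. The medians cross, high in Tg-Sham and Con-TAC and low in the other groups. TAC lowered Gnb3 in Tg hearts (log2 -0.91 with SE 0.28, limma adjusted p = 0.0229, 6 of 6), and the difference was 0.61 in control hearts (adjusted p = 0.186). The interaction of Gnb3 was log2 -1.52, SE 0.39, limma adjusted p = 0.616, 6 of 6.

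For Acap3, Stc2, Poldip3 and Dapp1, which are among the 16 as well, the highest median was that of Tg-TAC hearts. Acap3, which switches off Arf GTPases, had 430.1, 516 and 554 in Tg-TAC, 342, 389.7 and 457 in Tg-Sham, 273, 392 and 432 in Con-TAC and 339.8, 457 and 491 in Con-Sham hearts. TAC raised it in Tg hearts (log2 0.37 with SE 0.093, limma adjusted p = 0.00739, 6 of 6) and it was higher in Tg-TAC than in Con-TAC (log2 0.44 with SE 0.093, limma adjusted p = 0.0112, 6 of 6). Its interaction was log2 0.59, SE 0.13, limma adjusted p = 0.397, 6 of 6, and with array weights it was 0.70 with an adjusted p of 0.0345. Stc2, which encodes the secreted glycoprotein stanniocalcin 2, had 334, 606 and 799 in Tg-TAC, 280.1, 458 and 489 in Tg-Sham, 202, 335 and 379 in Con-TAC and 444, 473 and 519 in Con-Sham hearts. TAC lowered it in control hearts, where no library overlapped (log2 -0.69 with SE 0.20, limma adjusted p = 0.0421, 6 of 6), while the difference in Tg hearts was 0.42 (adjusted p = 0.152). The interaction of Stc2 was log2 1.11, SE 0.29, limma adjusted p = 0.616, 6 of 6, and 1.52 among the libraries named 7 to 14. Poldip3, a partner of DNA polymerase delta, had 801, 857 and 979.7 in Tg-TAC, 639, 677 and 767 in Tg-Sham, 636, 743 and 818 in Con-TAC and 696, 774 and 808 in Con-Sham hearts. The Tg-TAC libraries lay above all Tg-Sham libraries (log2 0.34 with SE 0.075, limma adjusted p = 0.00335, 6 of 6), and the control groups overlapped, with a difference of -0.064. The interaction was small (log2 0.41, SE 0.11, limma adjusted p = 0.616, 6 of 6). Dapp1, an adaptor that binds phosphoinositides, had group medians of 305 in Tg-TAC, 220.2 in Tg-Sham, 259.5 in Con-TAC and 287 in Con-Sham (interaction log2 0.67, SE 0.18, limma adjusted p = 0.616, 6 of 6). It was the Tg-Sham level that stood lowest.

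Fpgt, an enzyme of fucose salvage, ran the other way. Its values were 272, 322 and 344 in Tg-TAC, 329, 369.7 and 453 in Tg-Sham, 355, 393 and 458 in Con-TAC and 331, 357 and 374 in Con-Sham hearts. Every Tg-TAC library lay below every Con-TAC library (log2 -0.33 with SE 0.076, limma adjusted p = 0.0149, 6 of 6), and the interaction was log2 -0.39, SE 0.11, limma adjusted p = 0.616, 6 of 6. Exoc2, a subunit of the exocyst that tethers secretory vesicles, had 367, 423 and 544 in Tg-TAC, 286, 341 and 393 in Tg-Sham, 468, 615 and 632 in Con-TAC and 552, 630.0 and 711 in Con-Sham hearts. It was lower in Tg hearts both after TAC (log2 -0.42 with SE 0.094, limma adjusted p = 0.0135, 6 of 6) and after sham surgery (log2 -0.90 with SE 0.094, limma adjusted p = 4.18e-07, 6 of 6), and the gap was smaller after TAC (interaction log2 0.49, SE 0.13, limma adjusted p = 0.616, 6 of 6, or 0.28 among names 7 to 14). Ssbp2, a single-stranded DNA-binding protein on the same chromosome, 13, had medians of 636 in Tg-TAC, 464 in Tg-Sham, 719.7 in Con-TAC and 736 in Con-Sham. Its interaction was 0.41 (SE 0.15, adjusted p = 0.713), with 0.26 without the 4 libraries and 0.23 among names 7 to 14, and it fell in Tg-Sham relative to Con-Sham (log2 -0.67 with SE 0.10, limma adjusted p = 0.000455, 6 of 6).

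Genes with a strong genotype difference in sham hearts were compared in the same way. In sham hearts 142 genes were called between the genotypes (0.873%, 128 higher, or 0.786%, and 14 lower, or 0.086%, in Tg), and after TAC 1054 (6.48%), 519 higher (3.19%) and 535 lower (3.29%), and 46 were called both times with the same sign. Centring each library on its median gave 425 higher and 714 lower after TAC. These counts rest on few libraries. The sham count was 86, 49, 53, 84 and 78 without Con-Sham 1 to 5, 58, 62, 59, 84 and 29 without Tg-Sham 1, 2, 4, 5 and 6, 234 and 347 without Tg-TAC 4 and 6, 241 with the name number as a covariate, 24 among names 7 to 14, and 430 without the 4 least similar libraries. The count after TAC was 300, 648, 134, 320 and 3642 without Tg-TAC 1, 3, 4, 5 and 6, and 299, 652, 176, 260 and 2812 without Con-TAC 1, 2, 3, 5 and 6, 534 in the 24 libraries alone, 3316 with the covariate, 4103 among names 7 to 14 and 3910 without the 4. Dmd, which encodes dystrophin, the link between the sarcomere and the membrane, had 1082, 1655 and 2493 in Tg-TAC, 1044, 1415 and 1596 in Tg-Sham, 2349, 2847 and 5229.7 in Con-TAC and 2771, 3006 and 3279.6 in Con-Sham hearts. It was lower in Tg in sham hearts, without overlap (log2 -1.15 with SE 0.16, limma adjusted p = 0.000119, 6 of 6), and after TAC (log2 -0.94 with SE 0.16, limma adjusted p = 0.00105, 6 of 6), and its interaction was 0.20 (95% interval -0.24 to 0.65). For Dmd the interaction was 0.13 without the 4 libraries and 0.11 among names 7 to 14. Adap1, an Arf-directed signalling adaptor, was higher in Tg in sham hearts (log2 1.05, adjusted p = 0.000315) and after TAC (log2 0.80, adjusted p = 0.00466), with an interaction of -0.25 (95% interval -0.68 to 0.19). For Adap1 the interaction was -0.048 without the 4 libraries and -0.0061 among names 7 to 14. Ndnf, a secreted factor of neurons and vessels, likewise was higher in Tg by 1.35 in sham hearts (adjusted p = 0.000316) and by 0.98 after TAC (adjusted p = 0.00839), with an interaction of -0.38 (95% interval -0.95 to 0.20). For Ndnf the interaction was -0.033 without the 4 libraries. For these 3 genes the interval of the interaction includes 0. It does not for Exoc2 (0.22 to 0.76), Ssbp2 (0.12 to 0.71) and Mmp12 (-3.31 to -0.26), the other 3 of the 6 genes with the smallest p in sham hearts. Of the 142 genes 35 had an unadjusted interaction p under 0.05 (5.83% of all genes), and for 135 the interaction was opposite in sign to the sham difference. The sham libraries enter both the sham difference and the interaction, so a raised share and opposite signs are partly built in.

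The mitochondrial genome was the gene list with the most uniform direction. All 12 of its tested protein genes, of 13, had a negative interaction, where 47.1% of all genes had a positive one, with a median of -0.50 against -0.017 for all 16275 genes. At an unadjusted p under 0.05, 4 had a negative interaction (3.29% of all genes). In Tg hearts TAC lowered 5 of the 12, against 8.77% of all genes (-0.50 at the median). In control hearts 0 were called, where at 5.3% of all genes 0 of 12 is near the background, and the median was 0.014. After TAC 8 of 12 were lower in Tg than in control hearts, against 3.29% of all genes. In sham hearts 0 were called, where at 0.873% of all genes 0 of 12 is near the background. Among the libraries named 7 to 14 the median interaction was -0.96, and leaving out 1 library gave -0.63 to -0.36.

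The abundant members had intervals that reached 0. mt-Co1, a catalytic subunit of cytochrome c oxidase, had 1140166, 1625553 and 2078891 normalized counts in Tg-TAC, 1719789, 2129187 and 2666742 in Tg-Sham, 1696700.1, 2403342 and 2749722 in Con-TAC and 1846457, 2392670.3 and 2626992 in Con-Sham hearts. The Tg-TAC values were the lowest, overlapping with all other groups, and the interaction was log2 -0.37, SE 0.21, limma adjusted p = 0.853, 5 of 6. For mt-Co1 the interaction was -0.73 among names 7 to 14. mt-Nd5, a subunit of complex I, fell with TAC in Tg hearts (log2 -0.56 with SE 0.17, limma adjusted p = 0.0233, 6 of 6), where its TAC difference in control hearts was -0.076, and its interaction was log2 -0.48, SE 0.24, limma adjusted p = 0.847, 6 of 6. mt-Cytb, of complex III, had an interaction of -0.43 (adjusted p = 0.847), and mt-Nd1, mt-Nd2 and mt-Nd4 had -0.34, -0.47 and -0.52. mt-Nd6, the member transcribed from the other strand, had -0.19 (95% interval -0.66 to 0.29). For mt-Nd6 the interaction was -0.42 without the 4 libraries and -0.29 among names 7 to 14. Among names 7 to 14 the interaction was -0.97 for mt-Nd5, -0.79 for mt-Cytb, -0.67 for mt-Nd1, -0.92 for mt-Nd2 and -0.95 for mt-Nd4.

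The 4 members with an unadjusted p under 0.05 were mt-Co3, mt-Atp6, mt-Co2 and mt-Nd4l, and all 4 had low counts. mt-Nd3 had low counts too (0 to 17.34 over the libraries) but no such p. mt-Co3, another subunit of cytochrome c oxidase, had 73.7, 104 and 227 in Tg-TAC, 147, 194 and 331 in Tg-Sham, 185, 340.5 and 379 in Con-TAC and 180.4, 252 and 345 in Con-Sham hearts, far below mt-Co1. Its interaction was log2 -1.21, SE 0.30, limma adjusted p = 0.616, 6 of 6. mt-Atp6, of the ATP synthase, had medians of 61.5 in Tg-TAC, 112 in Tg-Sham, 186 in Con-TAC and 146 in Con-Sham (interaction log2 -1.12, SE 0.32, limma adjusted p = 0.709, 6 of 6). These counts are uncertain, because the genes have near-identical nuclear copies with which reads can be shared. In a search of annotated transcripts (GENCODE M21, blastn, at least 90% identity over at least 100 bases), 17 nuclear genes matched a mitochondrial gene, of which 11 were tested. A block on chromosome 1 holds Gm28437 (mm39 chromosome 1, 24652270 to 24653052), whose 783 aligned bases were 100% identical to mt-Co3. In the same block lie Gm10925, 100% identical to mt-Atp6 over 678 bases, and Gm28439, 100% identical to part of mt-Nd4 over 876 bases.

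Of the 11 tested copies 10 had a negative interaction, where 47.1% of all genes had a positive one, with a median of -0.84. With an unadjusted p under 0.05, 7 were lower, against 3.29% of all genes. Most of the 11 lie in the block on chromosome 1 (24650616 to 24655278) or in another on chromosome 2 (22477303 to 22480545). They can also share reads with the mitochondrial genes, so they are not separate observations. Gm28437 had 129, 189.7 and 412 in Tg-TAC, 309, 459.8 and 688 in Tg-Sham, 328, 650.5 and 675 in Con-TAC and 376, 565 and 625 in Con-Sham hearts. It fell with TAC in Tg hearts (log2 -1.12 with SE 0.23, limma adjusted p = 0.00203, 6 of 6), and the control groups overlapped, with a difference of 0.18. Its interaction was log2 -1.29, SE 0.32, limma adjusted p = 0.616, 6 of 6, and -1.84 among the libraries named 7 to 14. Gm10925 had an interaction of log2 -1.14, SE 0.29, limma adjusted p = 0.616, 6 of 6. The 17 copies together held 0.00646% to 0.0156% of the reads in Tg-TAC, 0.0126% to 0.0225% in Tg-Sham, 0.0136% to 0.0227% in Con-TAC hearts and 0.0125% to 0.0197% in Con-Sham. Which of these reads came from the mitochondrial genome cannot be told apart in gene counts.

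**Figure D3:**
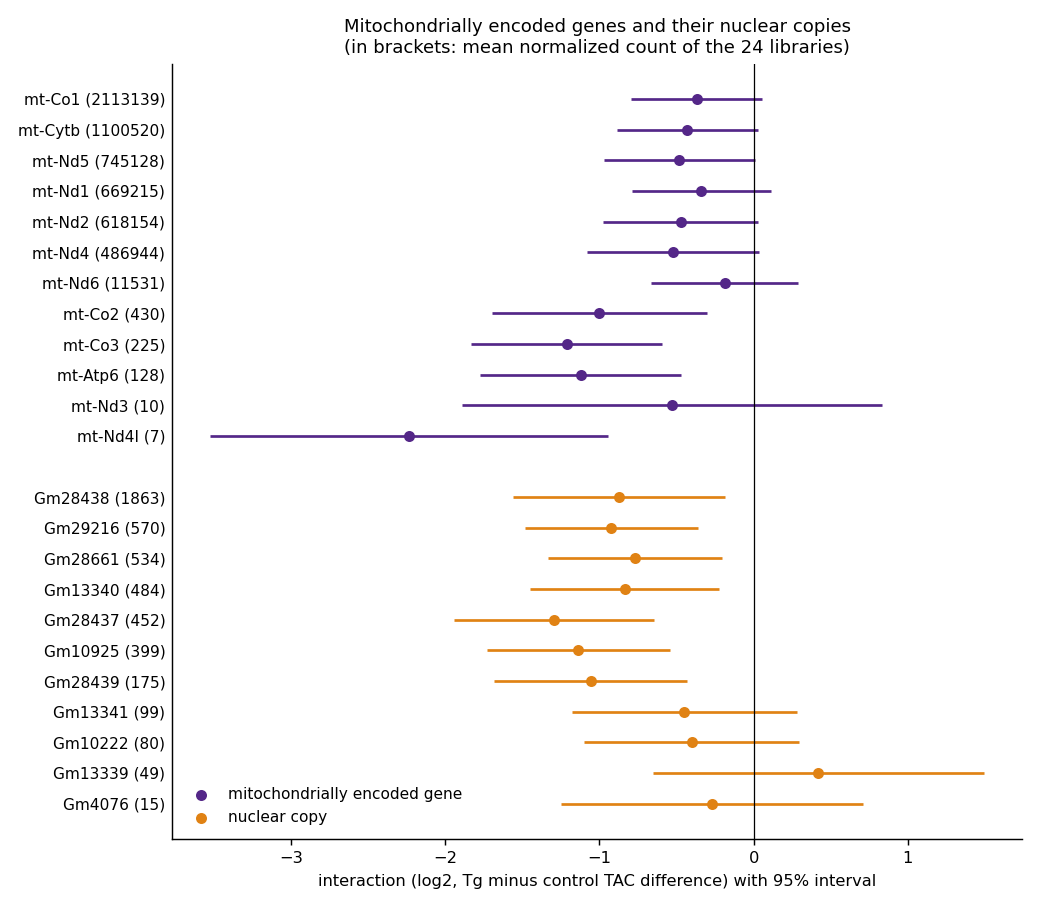
Interaction (x axis, log2) with its 95% interval for the 12 tested genes of the mitochondrial genome (purple) and the 11 tested nuclear copies (orange), each set ordered by mean normalized count. Every mitochondrial gene and 10 of the 11 copies lie left of 0. Of the mitochondrial genes with low counts, mt-Co2, mt-Co3, mt-Atp6 and mt-Nd4l lie further left than the abundant ones. Another, mt-Nd3, with 0 to 17.34 normalized counts, lies near the abundant mt-Nd4.

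Nuclear genes of energy metabolism had mostly negative interactions of small size. In fatty acid uptake and oxidation 3 of 38 members had a positive interaction, with a median of -0.22, and 0 had an unadjusted p under 0.05. TAC lowered 17 of them in Tg hearts (8.77% of all genes) and 1 in control hearts (2.65% of all genes, so that 1 of 38 is near the background), and 11 were lower in Tg-TAC than in Con-TAC (3.29% of all genes). Lpl, the lipase that frees fatty acids from lipoproteins, had 70966, 94837 and 155249.7 in Tg-TAC, 125721, 143311 and 160158 in Tg-Sham, 109929, 161603 and 205933 in Con-TAC and 157272, 167655 and 170272 in Con-Sham hearts. It fell with TAC in Tg hearts (log2 -0.47 with SE 0.16, limma adjusted p = 0.0332, 5 of 6), and its interaction was -0.39 (SE 0.22, adjusted p = 0.853). For Lpl the interaction was -0.61 among names 7 to 14. Cd36, a fatty acid transporter, fell in Tg hearts too (log2 -0.39 with SE 0.13, limma adjusted p = 0.0397, 5 of 6), with an interaction of -0.32 (SE 0.19, adjusted p = 0.853). For Cd36 the interaction was -0.50 among names 7 to 14. In the TCA cycle and pyruvate oxidation list 1 of 30 was positive (median -0.19), in complex I 5 of 36 (median -0.16), in complexes II to V 5 of 36 tested, of 48 (median -0.12) and in branched-chain amino acid and GABA breakdown 2 of 23 (median -0.23), where Abat is the 1 member with an unadjusted p under 0.05. Without Tg-TAC 4 the median of complexes II to V was 0.014, that of complex I -0.023, that of the TCA list -0.069 and that of the fatty acid list -0.11, and so nearer to 0. Without Con-TAC 6 that of complexes II to V was -0.26, that of complex I -0.30 and that of the TCA list -0.30, and without Tg-TAC 6 that of the fatty acid list was -0.44 and that of the branched-chain list -0.35. These medians were, without the 4 least similar libraries, -0.44 for the fatty acid list, -0.30 for the TCA list, -0.32 for complex I, -0.28 for complexes II to V and -0.37 for the branched-chain list. Among names 7 to 14 they were -0.45 for the fatty acid list, -0.34 for the TCA list, -0.25 for complex I, -0.23 for complexes II to V and -0.45 for the branched-chain list. Ppm1k, the phosphatase that activates branched-chain keto acid oxidation, had medians of 1357 in Tg-TAC, 3373 in Tg-Sham, 2851 in Con-TAC and 4072 in Con-Sham and fell with TAC in Tg hearts (log2 -1.06 with SE 0.24, limma adjusted p = 0.00451, 5 of 6), with an interaction of -0.58. For Ppm1k the interaction was -1.05 among names 7 to 14. Tfb2m, a transcription factor of the mitochondrial genome, had 699, 791 and 881 in Tg-TAC, 754, 953 and 1007 in Tg-Sham, 897, 1021 and 1106 in Con-TAC and 838, 940.0 and 1006 in Con-Sham hearts. All Tg-TAC libraries lay below all Con-TAC libraries (log2 -0.36 with SE 0.080, limma adjusted p = 0.0129, 6 of 6), and the interaction was log2 -0.34, SE 0.11, limma adjusted p = 0.713, 6 of 6.

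Cardiomyocyte markers, which share these cells, had 3 of 18 positive interactions and a median of -0.091, or -0.24 without the 4 libraries and -0.27 among names 7 to 14 and -0.24 without Tg-TAC 6. Their mean log2 level was 14.8 to 15.7 in Tg-TAC, 15.5 to 15.6 in Tg-Sham, 15.2 to 15.7 in Con-TAC hearts and 15.6 to 15.8 in Con-Sham. TAC lowered 6 of them in Tg hearts (8.77% of all genes) and 1 in control hearts (2.65%). Fewer cardiomyocytes and less RNA per cardiomyocyte cannot be told apart in whole hearts, and their part in the energy genes was not tested. In glycolysis and glucose transport 12 of 21 were positive (median 0.10, and 0.0061 without Con-TAC 1, 0.0082 without the 4 libraries). Pgk1, which makes ATP in glycolysis, had 5375, 6697 and 8043 in Tg-TAC, 4646, 4775 and 5182 in Tg-Sham, 4902, 5687 and 5953 in Con-TAC and 4356, 4882 and 5842 in Con-Sham hearts. With TAC it rose in Tg hearts, without overlap (log2 0.43 with SE 0.081, limma adjusted p = 0.00119, 6 of 6), and its interaction was log2 0.28, SE 0.11, limma adjusted p = 0.759, 6 of 6. For Pgk1 the interaction was 0.46 among names 7 to 14. Pfkl, a phosphofructokinase, rose as well in Tg hearts (log2 0.46 with SE 0.092, limma adjusted p = 0.00194, 6 of 6), with an interaction of log2 0.30, SE 0.13, limma adjusted p = 0.775, 5 of 6.

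**Figure D4:**
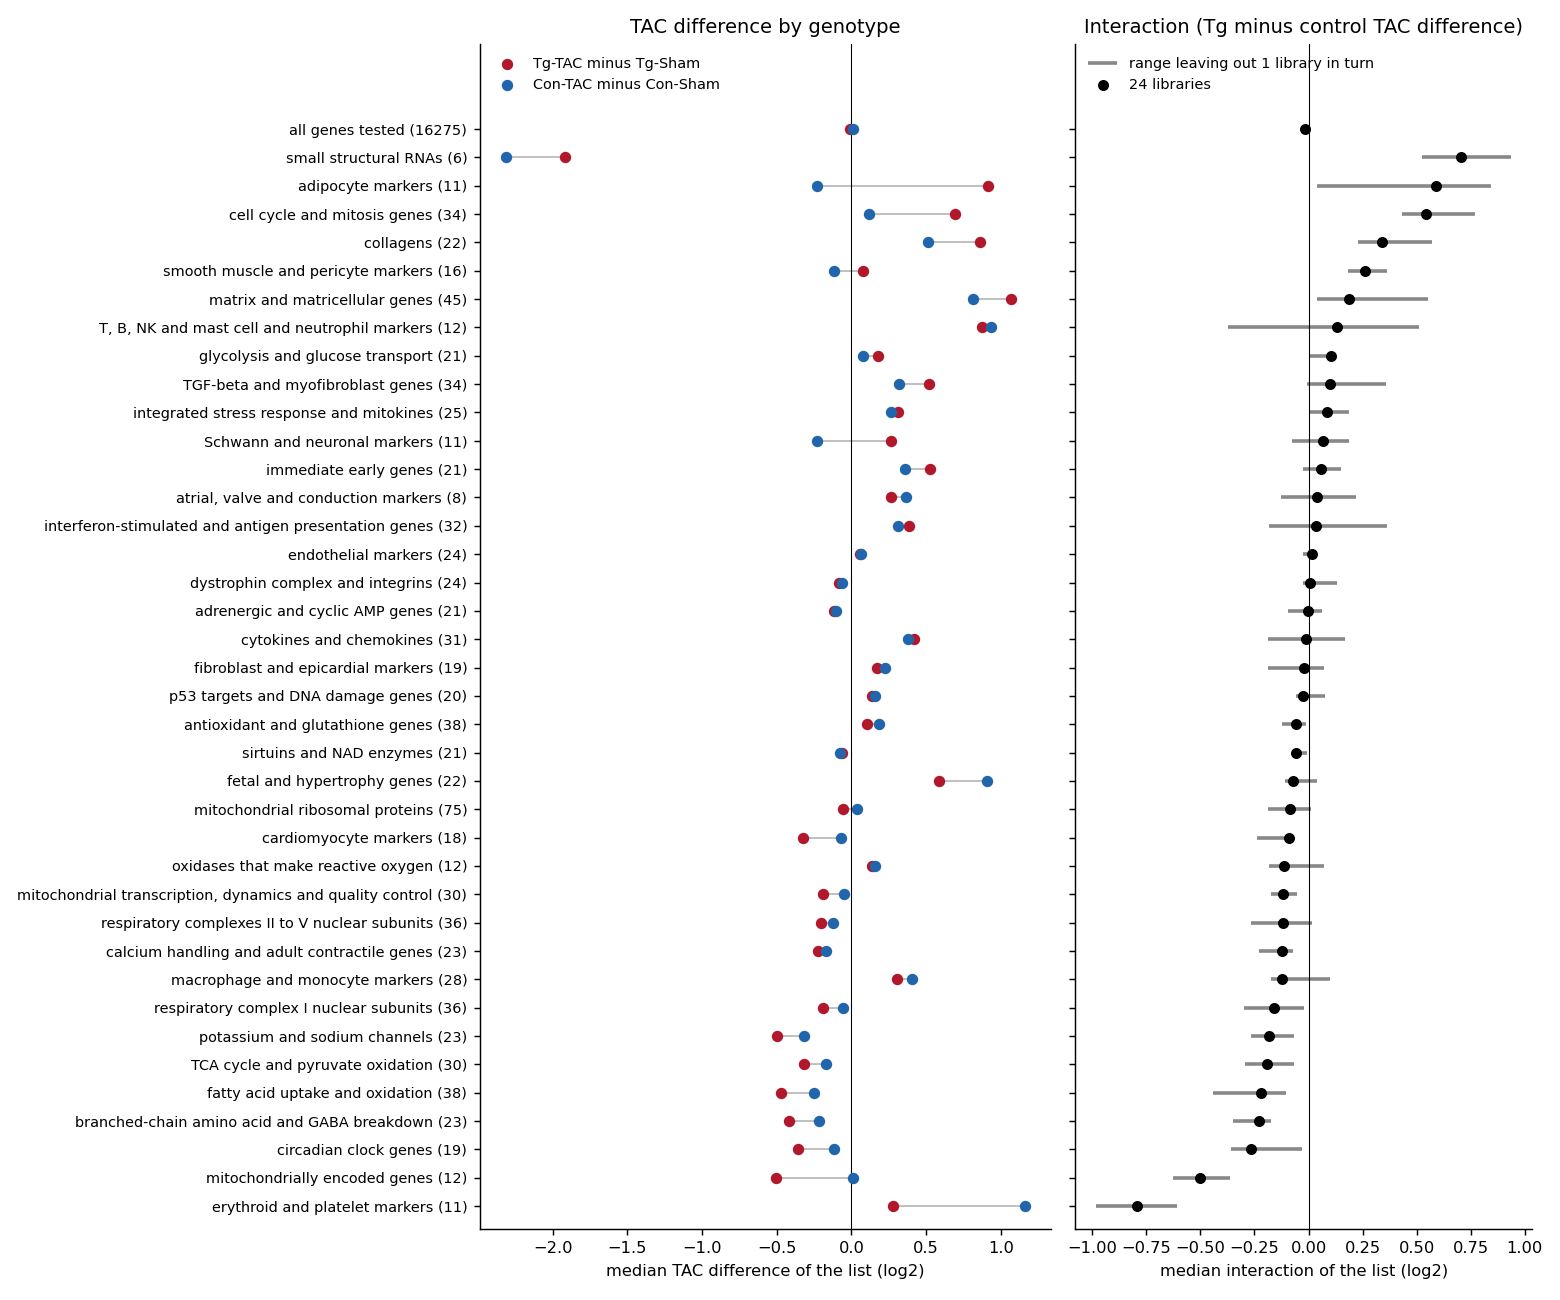
Left, the median TAC difference (log2) of each of 38 gene lists and of all genes in Tg hearts (red) and control hearts (blue), with the number of tested members in brackets; right, the median interaction (dots) with its range when 1 of the 24 libraries is left out (bars). Erythroid and mitochondrial lists lie lowest, small structural RNAs, adipocyte, cell cycle and collagen lists highest, and the adipocyte bar reaches almost to 0.

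Contractile genes of smooth muscle and myofibroblasts had mostly positive interactions. Among 16 smooth muscle and pericyte markers 12 were positive (47.1% of all genes), with a median of 0.26. Cnn1, Acta2 and Tagln had a positive interaction at an unadjusted p under 0.05 (2.54% of all genes). Myl9, the regulatory light chain of smooth muscle myosin, had 724, 946 and 2704 in Tg-TAC, 452, 548 and 693 in Tg-Sham, 344, 564 and 786 in Con-TAC and 562, 728 and 769.7 in Con-Sham hearts. Its level rose with TAC in Tg hearts, without overlap (log2 0.95 with SE 0.27, limma adjusted p = 0.0159, 6 of 6), was higher in Tg-TAC than in Con-TAC (log2 1.03 with SE 0.27, limma adjusted p = 0.0253, 6 of 6), and its interaction was log2 1.35, SE 0.38, limma adjusted p = 0.697, 6 of 6. Tagln, which encodes the actin-binding protein transgelin, had 853, 1178 and 2565 in Tg-TAC, 469.7, 602 and 1258 in Tg-Sham, 411, 680.1 and 1335 in Con-TAC and 615, 923 and 1143 in Con-Sham hearts. In Tg hearts it rose with TAC (log2 1.06 with SE 0.34, limma adjusted p = 0.0287, 6 of 6), the control difference was -0.26, and the interaction was log2 1.32, SE 0.48, limma adjusted p = 0.717, 6 of 6. Acta2, smooth muscle actin, had 3709, 6095 and 7855 in Tg-TAC, 2559.5, 4111 and 4967 in Tg-Sham, 1138, 1980.1 and 4197 in Con-TAC and 1581, 3809.6 and 5047 in Con-Sham hearts. Its median was lowest in Con-TAC and highest in Tg-TAC (log2 1.46 with SE 0.30, limma adjusted p = 0.00839, 6 of 6 for Tg-TAC against Con-TAC), and the interaction was log2 1.25, SE 0.42, limma adjusted p = 0.713, 6 of 6. Cnn1, calponin, had an interaction of log2 1.72, SE 0.75, limma adjusted p = 0.775, 5 of 6, with 26.6, 251 and 443 in Tg-TAC and 29.8, 64.9 and 212 in Con-TAC hearts. The mean log2 level of the 16 markers was 10.6 to 11 in Tg-TAC, 10.3 to 10.9 in Tg-Sham, 10.2 to 10.7 in Con-TAC hearts and 10.4 to 10.8 in Con-Sham, so the groups overlapped for the list as a whole.

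Both inhibitory Smads were among the members with an unadjusted p under 0.05 in the TGF-beta and myofibroblast list. In it 20 of 34 tested members, of 35, were positive (47.1% of all genes), with a median of 0.10. A positive interaction at an unadjusted p under 0.05 was found for 4 (2.54% of all genes), namely Tagln, Acta2, Smad6 and Smad7. Smad6, which curbs BMP signalling, had 446, 510.3 and 789 in Tg-TAC, 225, 282 and 317 in Tg-Sham, 310.2, 382 and 459 in Con-TAC and 239.5, 312 and 386 in Con-Sham hearts. TAC raised it in Tg hearts, without overlap (log2 0.99 with SE 0.13, limma adjusted p = 7.19e-06, 6 of 6), it was higher in Tg-TAC than in Con-TAC (log2 0.55 with SE 0.13, limma adjusted p = 0.0138, 6 of 6), and its interaction was log2 0.68, SE 0.18, limma adjusted p = 0.616, 6 of 6. Smad7, which curbs TGF-beta signalling and was named after its values were seen, had an interaction of log2 0.57, SE 0.25, limma adjusted p = 0.78, 5 of 6. The list's median ranged from -0.0048 to 0.36 when 1 library was left out, the lowest without Tg-TAC 5 and the highest without Tg-TAC 6, and was 0.36 without the 4 libraries and 0.33 among names 7 to 14.

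Among the 45 genes of the matrix and matricellular list elastin had the smallest interaction p. Eln, which encodes the core of elastic fibres, had 1638, 2892 and 3875 in Tg-TAC, 680.1, 1033 and 1393 in Tg-Sham, 797, 1236 and 1645 in Con-TAC and 696, 1058 and 1301 in Con-Sham hearts. All Tg-TAC libraries exceeded all Tg-Sham libraries (log2 1.38 with SE 0.24, limma adjusted p = 0.000712, 6 of 6), Tg-TAC was higher than Con-TAC (log2 1.11 with SE 0.24, limma adjusted p = 0.0128, 6 of 6), and the control difference was 0.31. The interaction of Eln was log2 1.08, SE 0.34, limma adjusted p = 0.713, 6 of 6, with 0.95 to 1.22 when 1 library was left out and 1.81 among the libraries named 7 to 14. In this list 28 of 45 were positive (47.1% of all genes), with a median of 0.19. Eln alone had an unadjusted p under 0.05, and at 2.54% of all genes 1 of 45 is near the background. TAC raised 26 and lowered 3 of them in Tg hearts, against 7.91% higher and 8.77% lower of all genes, and raised 13 and lowered 1 in control hearts, against 2.65% each way, so that the lowered members are near the background. Lox, which cross-links elastin and collagen, had 154, 1534 and 2789 in Tg-TAC, 214, 247 and 394 in Tg-Sham, 132, 227 and 1528 in Con-TAC and 127, 173 and 221 in Con-Sham hearts. Its Tg-TAC values overlapped those of every other group, and its interaction was log2 1.38, SE 0.86, limma adjusted p = 0.87, 5 of 6. For Lox the interaction was 2.28 without the 4 libraries and 2.48 among names 7 to 14. Of 22 collagens 18 were positive (median 0.34) with 0 at an unadjusted p under 0.05, and TAC raised 14 in Tg (7.91% of all genes) and 3 in control hearts (2.65%). Col18a1, a basement membrane collagen, had an interaction of 0.59 (SE 0.34, adjusted p = 0.853). The list medians moved with single libraries, the matrix list from 0.041 without Tg-TAC 4 to 0.55 without Tg-TAC 6 and the collagens from 0.23 without Tg-TAC 1 to 0.57 without Tg-TAC 6. Without the 4 least similar libraries they were 0.68 and 0.69, and among names 7 to 14 0.60 and 0.76. Fibroblast and epicardial markers had 9 of 19 positive interactions and a median of -0.021, which turned sign to 0.17 without the 4 libraries and 0.15 among names 7 to 14. It ranged from -0.19 without Tg-TAC 4 to 0.072 without Tg-TAC 6. Their mean log2 level was 9.33 to 11 in Tg-TAC, 9.40 to 10.2 in Tg-Sham, 8.94 to 10.1 in Con-TAC hearts and 8.89 to 9.62 in Con-Sham. Their part in the matrix values was not tested.

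**Figure D5:**
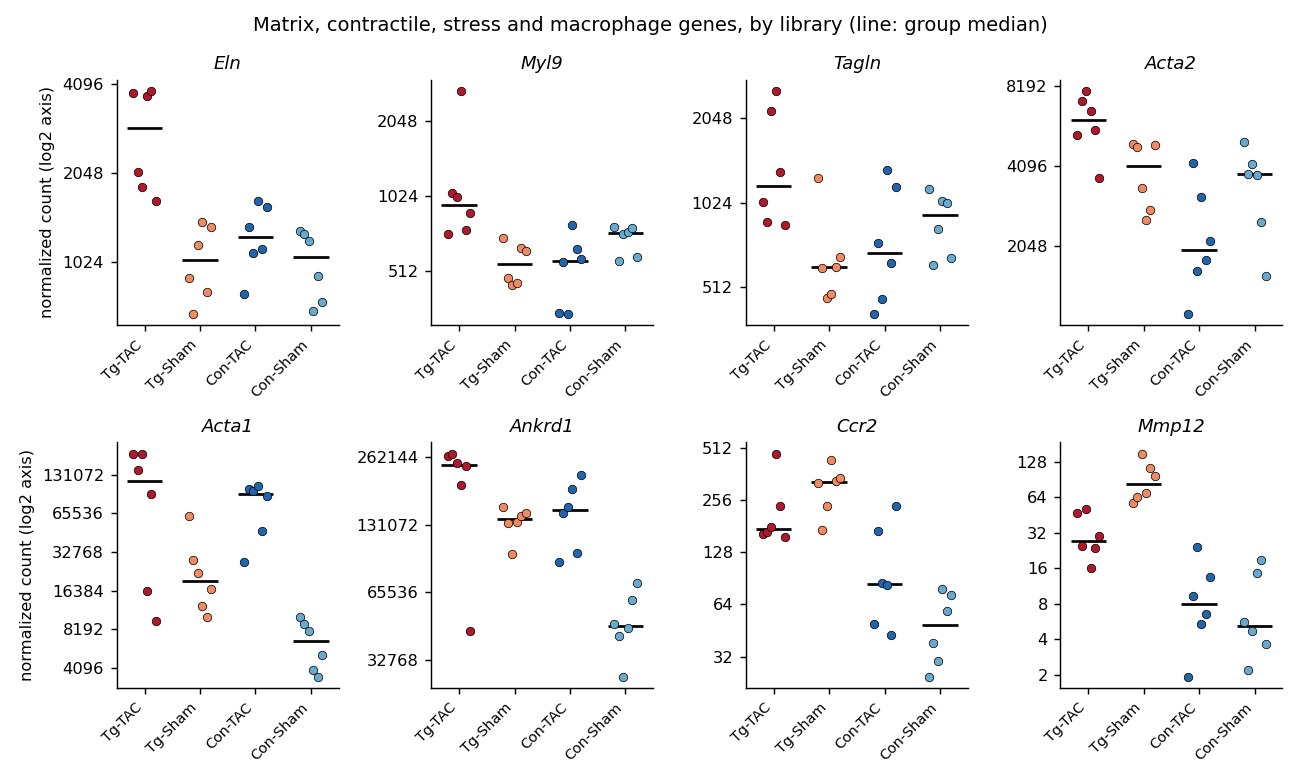
Normalized counts (log2 axis) of 8 genes in the 4 groups, 1 point per library and a line at the median of 6. Eln, Myl9, Tagln and Acta2 have their highest median in Tg-TAC, Acta1 and Ankrd1 their lowest in Con-Sham with low Tg-TAC libraries apart from the others, and Ccr2 and Mmp12 their highest in Tg-Sham.

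Acta1 and Ankrd1, stress genes of the cardiomyocyte, were lowest in Con-Sham hearts, as Abat was. In the fetal and hypertrophy list 10 of 22 tested members, of 24, were positive (47.1% of all genes), with a median of -0.072. The median turned sign to 0.24 without the 4 libraries and 0.41 among names 7 to 14. Acta1 and Ankrd1 had a negative interaction at an unadjusted p under 0.05 (3.29% of all genes). Acta1, an actin of skeletal muscle and of the fetal heart, had 9532, 117706 and 192358 in Tg-TAC, 10211, 19557 and 62805 in Tg-Sham, 27540.1, 93664 and 107859 in Con-TAC and 3483, 6572 and 10127 in Con-Sham hearts. Con-Sham values lay below all Con-TAC and all Tg-Sham values. TAC raised Acta1 in control hearts (log2 3.54 with SE 0.57, limma adjusted p = 0.000824, 6 of 6) and in Tg hearts (log2 1.63 with SE 0.57, limma adjusted p = 0.0459, 4 of 6), and the interaction was log2 -1.91, SE 0.81, limma adjusted p = 0.765, 6 of 6. Of the Tg-TAC libraries, 4 and 6 had 16171 and 9532, and without the 4 least similar libraries the interaction was -0.76. Ankrd1, a stretch-responsive partner of titin, had 44114, 242127 and 270939 in Tg-TAC, 96845, 138738 and 156501 in Tg-Sham, 89661, 152592 and 218043 in Con-TAC and 27651, 46471 and 71802 in Con-Sham hearts. It rose with TAC in control hearts (log2 1.60 with SE 0.33, limma adjusted p = 0.00774, 6 of 6) and was higher in Tg-Sham than in Con-Sham (log2 1.51 with SE 0.33, limma adjusted p = 0.0216, 6 of 6), and the interaction was log2 -1.15, SE 0.47, limma adjusted p = 0.751, 6 of 6, or -0.51 without the 4 libraries. Mybpc2, a myosin-binding protein of fast skeletal muscle, had medians of 1477 in Tg-TAC, 1063 in Tg-Sham, 909.9 in Con-TAC and 444 in Con-Sham and an interaction of log2 -0.74, SE 0.38, limma adjusted p = 0.847, 5 of 6, or -0.19 without the 4 libraries. Nppa, the atrial natriuretic peptide, named after its values were seen, rose in Tg hearts (log2 2.42 with SE 0.71, limma adjusted p = 0.0193, 5 of 6) and control hearts (log2 2.38 with SE 0.71, limma adjusted p = 0.0452, 6 of 6), with an interaction of 0.044 (95% interval -2.0 to 2.09). For Nppa the interaction was 1.29 without the 4 libraries and 1.13 among names 7 to 14.

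Macrophage genes were called more between genotypes than between TAC and sham hearts. Of 28 macrophage and monocyte markers 12 were higher in Tg-Sham than in Con-Sham (0.786% of all genes) and 10 higher in Tg-TAC than in Con-TAC (3.19%). With TAC 0 were called higher in Tg (7.91%) and in control hearts (2.65%, so that 0 of 28 is near the background there), and 1 lower in Tg hearts (8.77%). The TAC difference was still positive for 22 of the 28 in Tg hearts (median 0.30) and for 26 in control hearts (median 0.41). The interaction was positive for 7 of 28 (47.1% of all genes), with a median of -0.12. The median turned sign to 0.099 without Tg-TAC 6, 0.083 without the 4 libraries and 0.097 among names 7 to 14. Ccr2 and Mmp12 had a negative interaction at an unadjusted p under 0.05 (3.29% of all genes). Mmp12, the elastase of macrophages, had 16.2, 27.4 and 50.9 in Tg-TAC, 57.4, 82.8 and 149.8 in Tg-Sham, 1.92, 7.93 and 24.4 in Con-TAC and 2.20, 5.15 and 18.6 in Con-Sham hearts. It was higher in Tg in sham hearts, without overlap (log2 3.55 with SE 0.53, limma adjusted p = 0.000316, 6 of 6), and after TAC (log2 1.77 with SE 0.53, limma adjusted p = 0.0415, 6 of 6). TAC lowered it in Tg hearts, again without overlap (log2 -1.51 with SE 0.53, limma adjusted p = 0.0464, 6 of 6), the control difference was 0.28, and the interaction was log2 -1.78, SE 0.75, limma adjusted p = 0.765, 6 of 6. Ccr2, the chemokine receptor of recruited monocytes, had 157, 174 and 476 in Tg-TAC, 173, 327 and 435 in Tg-Sham, 42.8, 83.8 and 236 in Con-TAC and 24.5, 48.4 and 78.6 in Con-Sham hearts. Every Tg-Sham library exceeded every Con-Sham library (log2 2.65 with SE 0.49, limma adjusted p = 0.00515, 6 of 6), and the interaction was log2 -1.46, SE 0.69, limma adjusted p = 0.821, 6 of 6. Tyrobp, a signalling adaptor of myeloid cells, was higher in Tg-Sham than in Con-Sham (log2 1.29 with SE 0.27, limma adjusted p = 0.0167, 6 of 6), with an interaction of -0.55 (95% interval -1.33 to 0.24). For Tyrobp the interaction was -0.32 without the 4 libraries. The mean log2 level of the 28 markers was 7.17 to 9.24 in Tg-TAC, 7.80 to 8.31 in Tg-Sham, 7.01 to 8.11 in Con-TAC hearts and 6.80 to 7.25 in Con-Sham, without overlap in sham hearts and with overlap after TAC.

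Erythroid and platelet transcripts had the lowest median of all lists. Of 11 tested members, of 14, 2 were positive (47.1% of all genes), with a median of -0.79. At an unadjusted p under 0.05, 4 had a negative interaction (3.29% of all genes), among them Alas2, Ppbp and Hbb-bt. TAC raised 7 of the 11 in control hearts, against 2.65% of all genes, and 0 in Tg hearts, where at 7.91% of all genes 0 of 11 is near the background. Alas2, the first enzyme of haem synthesis in red cells, had 167, 262 and 564 in Tg-TAC, 149.8, 224 and 408 in Tg-Sham, 228, 319 and 483 in Con-TAC and 83.1, 153 and 223 in Con-Sham hearts. It rose with TAC in control hearts, without overlap (log2 1.16 with SE 0.26, limma adjusted p = 0.0129, 6 of 6), the Tg difference was 0.21, and the interaction was log2 -0.95, SE 0.37, limma adjusted p = 0.738, 5 of 6. For Alas2 the interaction was -0.62 among names 7 to 14. Ppbp, a platelet chemokine, had 7.19, 15.5 and 27.3 in Tg-TAC, 2.27, 12.6 and 24.4 in Tg-Sham, 7.91, 12.4 and 62.5 in Con-TAC and 2.20, 3.27 and 4.83 in Con-Sham hearts, so that the Con-Sham median was the lowest here too. Hbb-bt, a beta globin named after its values were seen, shares reads with near-identical globin genes and is uncertain (interaction log2 -0.89, SE 0.42, limma adjusted p = 0.821, 6 of 6, or -0.22 among names 7 to 14). Among the libraries named 7 to 14 the list's median was -0.26. The part of blood left in the excised hearts was not tested.

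Cell cycle genes had positive interactions in 30 of 34 members, with a median of 0.54 and 0.99 without the 4 least similar libraries. Foxm1, which drives genes of mitosis, was the 1 member with an unadjusted p under 0.05, and at 2.54% of all genes 1 of 34 is near the background. It had 31.2, 74.2 and 114 in Tg-TAC, 25.5, 44.2 and 67.2 in Tg-Sham, 8.77, 27.9 and 45.2 in Con-TAC and 24.4, 39.5 and 52.8 in Con-Sham hearts, was higher in Tg-TAC than in Con-TAC (log2 1.61 with SE 0.43, limma adjusted p = 0.0292, 6 of 6), and had an interaction of log2 1.44, SE 0.61, limma adjusted p = 0.775, 6 of 6. Mcm6 and Mcm3, subunits of the replicative helicase, had interactions of 0.60 and 0.55 (adjusted p = 0.847 and 0.847). TAC raised 5 members (7.91% of all genes) and lowered 1 (8.77%) in Tg hearts, and lowered 1 in control hearts (2.65%). The mean log2 level of the list was 5.73 to 7.13 in Tg-TAC, 5.62 to 6.20 in Tg-Sham, 5.54 to 6.22 in Con-TAC hearts and 5.24 to 6.15 in Con-Sham, with overlap of all groups.

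Single members of other lists are given next. Sirt6 and Sirt7, nuclear and nucleolar sirtuins, were the 2 of 21 sirtuin and NAD genes with an unadjusted p under 0.05 (2.54% of all genes, positive interaction). Sirt7 had 362, 399 and 476 in Tg-TAC, 325, 378 and 391 in Tg-Sham, 302, 334 and 353 in Con-TAC and 325, 368 and 428 in Con-Sham hearts, with every Tg-TAC library above every Con-TAC library (log2 0.28 with SE 0.086, limma adjusted p = 0.0421, 6 of 6), and an interaction of log2 0.27, SE 0.12, limma adjusted p = 0.791, 6 of 6. Sirt6 was higher in Tg-TAC than in Con-TAC (log2 0.40 with SE 0.12, limma adjusted p = 0.0402, 6 of 6), with an interaction of log2 0.51, SE 0.17, limma adjusted p = 0.713, 6 of 6. Ier2, an immediate early gene, rose with TAC in Tg hearts, without overlap (log2 0.62 with SE 0.13, limma adjusted p = 0.00259, 6 of 6), and had an interaction of log2 0.56, SE 0.19, limma adjusted p = 0.713, 6 of 6 and 0.28 without the 4 libraries. Among 11 tested markers of Schwann cells and neurons, of 16, Prx, a myelin protein, had a positive interaction (log2 1.40, SE 0.42, limma adjusted p = 0.713, 6 of 6) and Sox10, a transcription factor of glia, a negative one (log2 -1.80, SE 0.72, limma adjusted p = 0.742, 5 of 6), and for both the highest group median was under 100. Tubb3, a tubulin of neurons, had an interaction of log2 1.99, SE 0.88, limma adjusted p = 0.78, 5 of 6. For Tubb3 the interaction was 3.0 among names 7 to 14. Adipocyte markers were positive for 8 of 11, with a median of 0.59 that was 0.038 without Tg-TAC 4 and 1.01 among names 7 to 14. In the antioxidant and glutathione list 12 of 38 were positive (median -0.057) and 0 had an unadjusted p under 0.05. Txn1, thioredoxin, rose with TAC in Tg hearts (log2 0.39 with SE 0.10, limma adjusted p = 0.00861, 6 of 6), with an interaction of 0.21 (95% interval -0.079 to 0.49). For Txn1 the interaction was 0.42 among names 7 to 14. Among oxidases that make reactive oxygen, Cybb, the catalytic subunit of the phagocyte NADPH oxidase, was higher in Tg-Sham than in Con-Sham (log2 1.12 with SE 0.26, limma adjusted p = 0.0277, 6 of 6), with an interaction of -0.45 (95% interval -1.19 to 0.29). For Cybb the interaction was -0.055 without the 4 libraries and -0.29 among names 7 to 14.

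Small structural RNAs were lower in TAC than in sham libraries of both genotypes, 4 of 6 tested members, of 17, in Tg hearts (8.77% of all genes) and 5 of 6 in control hearts (2.65%). Of the 6 interactions 5 were positive (median 0.70, or 1.15 among names 7 to 14). Rn7sk, the RNA that holds the elongation factor P-TEFb inactive, had 64.9, 81.6 and 359 in Tg-TAC, 1228, 2758 and 5235 in Tg-Sham, 32.7, 55.5 and 139 in Con-TAC and 1764, 4547 and 7997 in Con-Sham hearts. It fell in Tg hearts (log2 -4.52 with SE 0.41, limma adjusted p = 2.25e-08, 6 of 6) and in control hearts (log2 -6.03 with SE 0.41, limma adjusted p = 7.91e-12, 6 of 6), without overlap in either, and its interaction was log2 1.51, SE 0.58, limma adjusted p = 0.738, 6 of 6, or 0.72 without the 4 least similar libraries. Scarna2, a guide RNA of Cajal bodies, fell in both as well, by log2 -2.13 in Tg (adjusted p = 0.0133) and -4.01 in control hearts (adjusted p = 0.00013), with an interaction of log2 1.88, SE 0.83, limma adjusted p = 0.78, 6 of 6. For Scarna2 the interaction was 1.16 without the 4 libraries. The ribosomal RNA gene Rn18s-rs5 accounted for 2.38% to 11.84% of reads in Tg-TAC, 3.37% to 9.69% in Tg-Sham, 1.55% to 9.22% in Con-TAC hearts and 3.5% to 11.01% in Con-Sham libraries (interaction log2 1.26, SE 0.54, limma adjusted p = 0.775, 6 of 6, or 0.79 without the 4 libraries). The sources used here do not say how RNA was selected for the libraries. Its part in the lower values of these RNAs in TAC libraries was not tested.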

How the data were processed

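RNA of whole mouse hearts was sequenced in 36 libraries of 6 groups. Per the labels' protocols, hearts were snap frozen, a kit for fibrous tissue gave the RNA and a directional kit the libraries. Trim Galore, STAR and the build mm39 are named in the submitters' processing notes; the counter, its strand setting and all versions are not given in these sources. What was deposited is a signal: reads per gene divided by 1 size factor per library by the authors, as their values show, since 100% of them came out as whole reads within 0.01 read.

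Of 25626 genes, the 16275 with at least 10 normalized counts in at least 6 libraries were tested with limma 3.58.1 (R 4.3.3) on log2(normalized count + 1), with 1 mean per group over all 36 libraries, trend and robust moderation, two-sided, and Benjamini-Hochberg adjustment at 0.05. Fold changes on this scale understate the change of low genes. "6 of 6" and the like count the libraries of the first-named group on the side of the difference relative to the mean of the other group, or, for the interaction, relative to the mean that the control TAC difference would give. edgeR 4.0.16 and DESeq2 1.42.0 ran on the recovered reads as alternatives. The fits were also run on simulated counts with a common dispersion and no deviating libraries. That run cannot show how they behave with libraries as unlike as some of these. Sirt4 was also tested by exact permutation (scipy 1.17.1).

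The comparison, the gene lists and the genes named were chosen with earlier results of these data known. Named were Sirt4, the 16 genes with the smallest interaction p at a mean of at least 100 normalized counts, the 5 higher and 5 lower with the largest interaction at an unadjusted p under 0.05, up to 3 members with the smallest p in each of 38 lists, the 6 with the smallest p called in both TAC comparisons, the 6 with the smallest p called in sham hearts, and the mitochondrial genes. The labels do not say that libraries with the same replicate number share a litter or day, and 36 same-number pairs deviated together with r from -0.483 to 0.311 (median 0.03), with 6 above 0.1, so the numbers were not used to pair. The labels do not say that each library is from another mouse, so p-values measure the spread between these libraries, which may be technical. No library was a copy of another (r of 0.852 to 0.984 over 276 pairs). Alternatives were other pseudocounts, filters, scalings and tools, array weights, the name number, the replicate number as a block, and leaving out libraries; leaving out the 4 least similar libraries together was chosen after seeing the data. Values of some genes chosen by these rules are not reported here.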

Additional observations from a re-analysis of the deposited data

Results flagged for a closer look

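Single libraries far from the other 5 of their group on the log2 scale were found in 46 of 312 groups of values (78 genes in 4 groups), where chance marks about 1 in 20. Values in brackets are normalized counts. Con-TAC 6 was the lowest of its group in Gm10925 (330.5), Gm28437 (328.1), Hmcn2 (425.4), mt-Atp6 (91.72), mt-Co2 (320.2), mt-Co3 (185), mt-Cytb (763136.9), mt-Nd1 (459475.1), mt-Nd2 (433000.7), mt-Nd4 (360616.3) and mt-Nd6 (8277.9) and the highest of its group in Atp8a2 (890.3). Tg-TAC 6 was the lowest of its group in Adap1 (180.4), Ankrd1 (44113.9), Cnn1 (26.59) and Nppa (3534.5) and the highest of its group in Ppm1k (4140.4). Con-Sham 2 was the lowest of its group in Tyrobp (50.61), mt-Nd4 (325286.2) and mt-Nd4l (1.1) and the highest of its group in Sirt4 (606.2) and Tubb3 (50.61). Tg-TAC 4 was the lowest of its group in Hmcn2 (77.25) and Sox10 (0) and the highest of its group in Ccr2 (476.1) and Myl9 (2703.6). Tg-Sham 3 was the lowest of its group in Ankrd1 (96844.7), Cpxm2 (1286.6) and Sirt7 (324.6) and the highest of its group in Ftl2-ps (460.2). Tg-Sham 5 was the lowest of its group in Myh6 (533224.9) and the highest of its group in Gnb3 (704.3), mt-Atp6 (199.1) and mt-Co2 (647.6). Con-Sham 4 was the lowest of its group in Lpl (157271.8) and Poldip3 (696.3) and the highest of its group in Ndnf (353). Con-TAC 4 was the highest of its group in Atf4 (2578.6) and Mcm3 (246.1). Con-TAC 5 was the lowest of its group in Exoc2 (468.1) and the highest of its group in Ftl2-ps (1.096). Tg-TAC 3 was the highest of its group in Gm6969 (458.8). Tg-Sham 1 was the highest of its group in Tagln (1257.6). Con-TAC 2 was the highest of its group in Rn18s-rs5 (2891280.6). Con-TAC 3 was the lowest of its group in Acap3 (273.2). Con-Sham 6 was the lowest of its group in Acap3 (339.8). The Sirt4 difference between Tg-Sham and Con-Sham hearts changed its sign without Con-Sham 2. The causes were not tested.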

How the results depend on the processing

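The interaction had 0 called genes under all other settings listed in the methods, but 3 with array weights and 2 with DESeq2. Its 949 genes at an unadjusted p under 0.05 became 1487 with no filter, 2143 with array weights, 1828 with the name number as a covariate, 1770 among names 7 to 14 and 2246 without the 4 least similar libraries, and 818 to 1725 when 1 library was left out. In the 24 libraries alone they were 763. The genes called after TAC in Tg hearts were 4926 with array weights, 4349 without the 4 libraries and 1693 to 4606 when 1 was left out. Those in control hearts were 524 with no filter, 3157 with array weights, 302 in the 24 libraries alone, 166 with the covariate, 24 among names 7 to 14, 1437 with DESeq2, 1909 without the 4 libraries and 134 to 1543 when 1 was left out. Those between genotypes after TAC were 620 with no filter, 3707 with array weights, 534 in the 24 libraries alone, 3316 with the covariate, 4103 among names 7 to 14, 1712 with DESeq2, 3910 without the 4 libraries and 134 to 3642 when 1 was left out, and those in sham hearts 1069 with array weights, 241 with the covariate, 24 among names 7 to 14, 321 with DESeq2, 430 without the 4 libraries and 29 to 347 when 1 was left out. With the replicate number as a block the interaction had 0 called and 952 at an unadjusted p under 0.05, the sham count was 92, and in 14 of 72 comparisons of a library with another group (24 libraries, each with 3 groups) the best correlation was with the library of the same number. The Sirt4 interaction was -0.022 with array weights and -0.056 without the 4 libraries, and its sham difference was -0.157 to 0.0084 when 1 library was left out. The interaction of Nr2f2 was -0.0032 among names 7 to 14. Of the values of named genes under alternatives 5680 kept their direction and their side of the threshold, 3 reversed and 2 passed it newly (Abat, Acap3), and of list medians 1459 moved by less than the spread between libraries and 23 by more. The cause of these changes was not tested. Depth limits genes under 10 normalized counts, and 6 libraries a group gave a median interval of 0.47 on the log2 scale to either side.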

Other observations

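Genes of calcium handling and adult contraction, and ion channels, had mostly negative interactions. In the calcium and contraction list 4 of 23 tested members were positive (median -0.12, or -0.20 without the 4 libraries and -0.26 among names 7 to 14), and TAC lowered 10 (8.77% of all genes) and raised 1 (7.91%) in Tg hearts, with 0 called in control hearts (5.3%). Pln, which restrains the calcium pump of the sarcoplasmic reticulum, had 55684, 105925 and 178833 normalized counts in Tg-TAC, 137263, 165913 and 206549 in Tg-Sham, 105761, 174183 and 188147 in Con-TAC and 194525, 200436 and 215987 in Con-Sham hearts. It fell with TAC in Tg hearts (log2 -0.76 with SE 0.18, limma adjusted p = 0.00556, 5 of 6), and its interaction was -0.42 (95% interval -0.95 to 0.10, adjusted p = 0.861). For Pln the interaction was -0.66 among names 7 to 14. Of 23 potassium and sodium channel genes 5 were positive (median -0.18, -0.069 without Tg-TAC 4, -0.30 without the 4 libraries and -0.33 among names 7 to 14), with TAC lowering 11 in Tg (8.77% of all genes) and 2 in control hearts (2.65%). Hcn4, the pacemaker channel, had 18, 44.9 and 393 in Tg-TAC, 116, 182 and 310.4 in Tg-Sham, 85.1, 222 and 342 in Con-TAC and 217, 322 and 396 in Con-Sham hearts. It fell with TAC in Tg hearts (log2 -1.69 with SE 0.43, limma adjusted p = 0.00821, 5 of 6), with an interaction of -1.01 (95% interval -2.24 to 0.22). Abcc9, part of the potassium channel that senses ATP, fell in Tg (log2 -1.26 with SE 0.20, limma adjusted p = 0.000346, 6 of 6) and in control hearts (log2 -0.74 with SE 0.20, limma adjusted p = 0.0274, 6 of 6), with an interaction of -0.52 (95% interval -1.09 to 0.045). For Abcc9 the interaction was -0.98 among names 7 to 14.

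The amino acid stress response and the p53 list held single genes that rose in Tg hearts. Atf4, the transcription factor of the amino acid response, had 1638, 2443 and 2948 in Tg-TAC, 1379.6, 1555 and 1817 in Tg-Sham, 1830.4, 2007 and 2579 in Con-TAC and 1485, 1643 and 1915 in Con-Sham hearts. It rose with TAC in Tg hearts (log2 0.58 with SE 0.13, limma adjusted p = 0.00387, 6 of 6), and its interaction was 0.27 (95% interval -0.11 to 0.64). Gadd45g, a growth arrest gene, rose in Tg hearts (log2 1.21 with SE 0.31, limma adjusted p = 0.00911, 6 of 6), with an interaction of log2 0.88, SE 0.44, limma adjusted p = 0.847, 5 of 6. For Gadd45g the interaction was 1.58 among names 7 to 14. Hmcn2, a matrix protein of the hemicentin family, had one of the largest negative interactions. It had 77.2, 646 and 838 in Tg-TAC, 748, 1374 and 2062 in Tg-Sham, 425, 919 and 1278 in Con-TAC and 631, 809 and 845 in Con-Sham hearts and an interaction of log2 -1.70, SE 0.53, limma adjusted p = 0.713, 6 of 6.

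Among genes with a mean of at least 100 normalized counts and an unadjusted p under 0.05, the largest interaction was that of Ftl2-ps, a ferritin pseudogene on chromosome 4, which was high in some libraries of a group and near 0 in the others. It had at least 100 normalized counts in 10 of 36 libraries (375.4 or more) and at most 12.57 in the rest, with 0 in 16. The 10 were 3 of Tg-TAC, 1 of Tg-Sham, 0 of Con-TAC, 2 of Con-Sham, 1 of the MitoQ-treated Tg-TAC hearts and 3 of the MitoQ-treated Con-TAC hearts. Gm6969, on chromosome 12, was likewise at 409.3 or more in 12 of 36 libraries and lower in the others, with 1 in Tg-TAC, 3 in Tg-Sham, 4 in Con-TAC, 2 in Con-Sham, 0 in MitoQ-treated Tg-TAC and 2 in MitoQ-treated Con-TAC hearts. Their interactions (log2 7.33 and -3.94) are means over such values and were not read as levels.

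The MitoQ-treated TAC hearts were outside the comparison and are given as values. Abat had 687, 895 and 1112 in Tg-TAC-MQ and 356, 633 and 936 in Con-TAC-MQ hearts. Smad6 had 289.5, 329 and 394 in Tg-TAC-MQ and 313, 345 and 393 in Con-TAC-MQ hearts, where Tg-TAC hearts with vehicle had 446, 510.3 and 789. Eln had 1125, 1643 and 1793 in Tg-TAC-MQ and 688, 1424 and 1631 in Con-TAC-MQ hearts, against 1638, 2892 and 3875 in Tg-TAC hearts with vehicle. Gm28437 had 223, 246 and 442 in Tg-TAC-MQ and 163, 270.3 and 296 in Con-TAC-MQ hearts. Every MitoQ-treated library has the name number 20 or 21, which no Tg-TAC vehicle library has. Rn18s-rs5 took 0.59% to 1.33% of reads in Tg-TAC-MQ and 2.38% to 11.84% in Tg-TAC with vehicle. MitoQ and the set of libraries can therefore not be told apart. The genes were also chosen by their interaction in the vehicle groups, of which Tg-TAC is a part. These values were not tested here.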
